A study of Mus musculus with 8 samples.

Results

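The libraries compared here hold 37583 gene rows, of which 9 genes are described. These are among the genes low or nearly absent in control kidneys and much higher in kidneys of mice labelled as lacking Tfap2b. The 9 are Pcdh8, Begain, Arhgap36, Gpr176, Adgra1, Npy, Nhlrc4, Stk32a and Stc1. They were chosen by their measured levels in these same 8 libraries, low in the control group and higher in the other, so that difference is described below without a test. The label of near silence held for 5 of them, with a wildtype mean under 1 CPM (read counts scaled for library size, here with TMM factors). The other 4, Npy, Nhlrc4, Stk32a and Stc1, had wildtype means of 2.21 to 6.15 CPM and were low rather than silent.

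RNA of whole kidneys was sequenced in 2 groups of 4 libraries. The mice labelled knockout had the genotype b-actinCreERT2+TFAP2Bfl/fl, a floxed Tfap2b gene with an inducible Cre recombinase under the beta-actin promoter, which is active in most cell types. The controls were littermates labelled WT. Whether the controls carried floxed alleles or received the inducing drug, and the age of the mice, were not stated in the labels, nor was whether each library came from a separate mouse. If it did not, p-values measure only the spread between these libraries. Knockout 1 to 4 and wildtype 1 to 4 below mean the libraries with those labels.

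Gene counts per library were 13435113 to 17930347. Counts over the whole Tfap2b gene, which includes exons outside any deleted part and so cannot check the deletion, were higher in the libraries labelled knockout, at 237 to 266 CPM against 94.3 to 111 CPM. Every direction below is therefore that of the libraries as labelled. Kidney segment markers were abundant in all 8 libraries, with summed levels of 11189 to 13814 CPM under the knockout label and 19923 to 21168 CPM under the wildtype label. Of these, 6 of 9 fell (edgeR adjusted p under 0.05), as did 5.70% of all genes tested. Atp6v1g3 and Aqp2, of collecting duct cells, rose (log2 fold change 0.97 and 1.17, edgeR adjusted p = 0.000386 and 0.0328), but Aqp2 overlapped between the groups. Slc4a1, also a collecting duct gene, did not pass (log2 fold change -0.20, edgeR adjusted p = 0.317). Knockout 4 held 249 CPM of adrenal cortex transcripts, against 7.64 to 10.8 CPM in the other libraries. In a bulk sample, more cells of a type and more RNA per cell cannot be told apart.

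Most of the 9 genes are better known from nerve and endocrine cells than from kidney tubules. Pcdh8 is an adhesion protein, Begain a partner of synaptic scaffold proteins, Npy a secreted neuropeptide and Stc1 a secreted glycoprotein hormone that is also made in the kidney. Gpr176 and Adgra1 are G protein-coupled receptors, Arhgap36 binds the catalytic subunit of protein kinase A and promotes hedgehog signalling, and Stk32a is a protein kinase. AP-2 factors, the family of Tfap2b, bind GC-rich palindromes and can activate or repress a promoter.

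The start regions of the genes are shown because AP-2 factors, the family of Tfap2b, have a known binding motif. RefSeq promoters of GRCm38.p6, 250 bases before to 50 after a start, were found for 7 of the 9 members, 12 promoters in all. Stk32a and Stc1 had none in the table. The motif GCCNNNGGC, which reads the same on both strands, occurred in 3 promoters of 2 members, Begain and Arhgap36. The Begain promoters among these overlap and share a match, so they are not independent. Other promoters of Begain and Arhgap36 lacked the motif. Of all 32851 promoters in the table, 16.6% held it. Its share depends on base composition, at 4.45% of promoters under 50% GC and 48.5% of those with at least 70% GC. The first 2 sequences below carry it, in capitals. Each is the promoter of its gene with the most matches. Begain is chr12:109068168-109068467 on the minus strand, 81.3% GC, with matches that begin 36 bases before the start and 20 bases into the transcript. Arhgap36 is chrX:49470200-49470499 on the plus strand, 60.3% GC, with a match 53 bases before the start.
Begain: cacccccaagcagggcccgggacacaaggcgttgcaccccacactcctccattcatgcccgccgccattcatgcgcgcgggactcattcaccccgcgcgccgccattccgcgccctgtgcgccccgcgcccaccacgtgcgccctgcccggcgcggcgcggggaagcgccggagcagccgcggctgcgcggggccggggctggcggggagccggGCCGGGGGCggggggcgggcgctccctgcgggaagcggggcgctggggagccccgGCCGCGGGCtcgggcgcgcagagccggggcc
Arhgap36: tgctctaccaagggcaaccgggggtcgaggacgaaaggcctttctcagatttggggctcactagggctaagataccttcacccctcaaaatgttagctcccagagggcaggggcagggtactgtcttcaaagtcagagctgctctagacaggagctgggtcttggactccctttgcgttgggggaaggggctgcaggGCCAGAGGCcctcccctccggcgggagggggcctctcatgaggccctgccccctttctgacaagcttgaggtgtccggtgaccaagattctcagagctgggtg

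The same palindrome with 4 or 5 bases between GCC and GGC occurred in 4 and 3 of the 12 member promoters, from 4 and 3 members. Of all promoters, 14.8% and 15.4% held these spacings, whose shares by base composition were not measured. Npy, chr6:49822460-49822759 on the plus strand, has both, in capitals 14 and 57 bases before its start. Pcdh8, chr14:79771263-79771562 on the minus strand, has none of the 3 spacings. It is the only one of the 7 with TATAAA on either strand, in capitals 30 bases before its start, a motif that 13.6% of all promoters hold. No member promoter held the cyclic AMP element TGACGTCA, which 1.79% of all promoters hold. All 12 member promoters lay above the median GC content of all promoters (52.7%), at 54.3% to 81.3%. These matches are letters in a window and show no binding.
Npy: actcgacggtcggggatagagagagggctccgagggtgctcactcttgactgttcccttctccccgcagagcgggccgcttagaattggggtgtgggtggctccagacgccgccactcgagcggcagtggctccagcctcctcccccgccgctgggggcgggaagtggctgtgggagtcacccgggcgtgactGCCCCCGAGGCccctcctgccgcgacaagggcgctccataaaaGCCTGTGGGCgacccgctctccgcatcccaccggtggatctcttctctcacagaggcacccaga
Pcdh8: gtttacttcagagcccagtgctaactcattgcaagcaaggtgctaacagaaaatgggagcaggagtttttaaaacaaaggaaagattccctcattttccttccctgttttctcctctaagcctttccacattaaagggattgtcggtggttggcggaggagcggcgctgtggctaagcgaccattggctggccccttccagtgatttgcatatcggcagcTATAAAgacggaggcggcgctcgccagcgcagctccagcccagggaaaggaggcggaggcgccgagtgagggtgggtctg

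Arhgap36, the protein kinase A inhibitor, was the only member without a wildtype count. It had 51, 36, 41 and 30 counts in knockout 1 to 4 and 0 in each wildtype library. That is 2.98, 2.11, 2.29 and 2.17 CPM against 0. With a floor of 3 counts over the whole wildtype group (0.0495 CPM), it was at least 48.4-fold higher under the knockout label. Of the 14032 gene rows with no wildtype count, Arhgap36 was the only one that passed the filter on low values. Such a row can pass only by being high in the libraries labelled knockout, as the members were chosen to be. Cyp21a1, an adrenal steroid enzyme, had more counts in the libraries labelled knockout (818), but 99.3% of them came from knockout 4. Among such rows the next highest after Arhgap36 by its lowest knockout library was Oxt, the oxytocin precursor, with 15, 17, 8 and 12 counts. Cyp21a1 and Oxt were singled out after their values were seen.

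Pcdh8, a protocadherin that takes part in cell adhesion, had 2, 2, 1 and 2 counts in wildtype 1 to 4 and 114, 146, 138 and 219 in knockout 1 to 4. Its levels were 0.15, 0.15, 0.058 and 0.12 CPM against 6.66, 8.55, 7.72 and 15.8 CPM. Knockout 4 was 2.37 times knockout 1, and even knockout 1 was 44.2 times the highest wildtype library. The log2 fold change was 6.29 ± 0.43 (SE), and 5.95 without knockout 4.

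Begain, the synaptic scaffold partner, was far more even. It stood at 9.12, 10.2, 8.0 and 9.68 CPM in knockout 1 to 4 and at 0.15, 0.15, 0.29 and 0.36 CPM in wildtype 1 to 4. The coefficient of variation over the libraries labelled knockout was 10.2%, against 42.9% for Pcdh8. Its log2 fold change was 5.19 ± 0.25 (SE), a 36.4-fold difference.

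**Figure D1:**
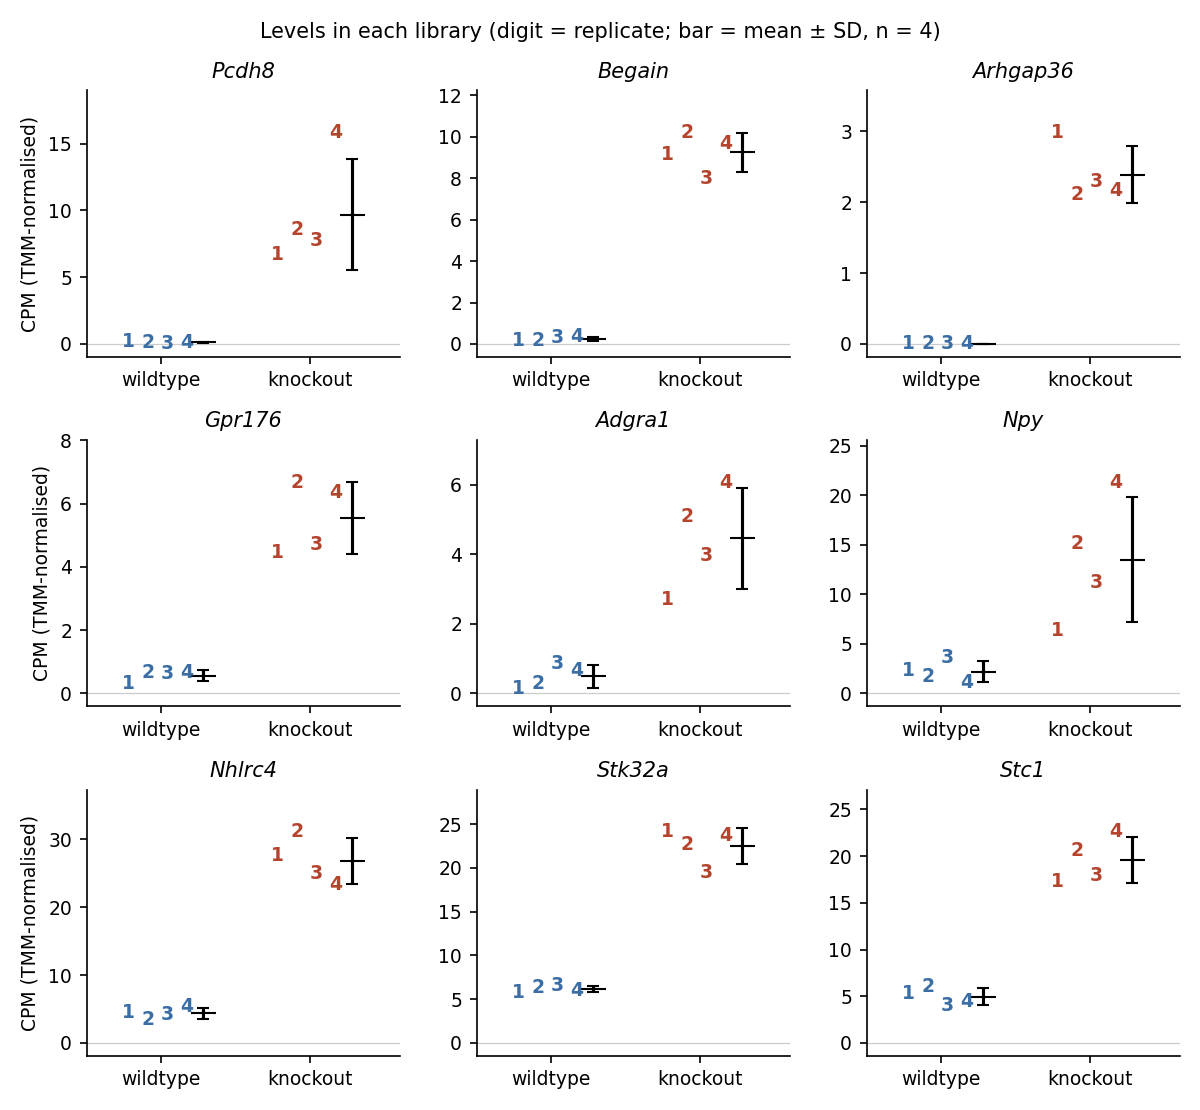
TMM-normalised CPM of the 9 genes in each library; each digit is a replicate, the bar is the mean and the whisker the SD (n = 4). For every gene the 4 libraries labelled knockout lie above the 4 labelled wildtype, with Npy closest to an overlap (6.31 CPM in knockout 1 against 3.61 CPM in wildtype 3).

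Both receptors were detected in wildtype kidney at a few counts. Gpr176, an orphan receptor known from the circadian centre of the brain, had 4, 9, 11 and 11 counts in wildtype 1 to 4, or 0.30, 0.66, 0.64 and 0.67 CPM. In knockout 1 to 4 it stood at 4.44, 6.67, 4.70 and 6.35 CPM. Wildtype 1 was low, and the log2 fold change was 3.25 ± 0.27 (SE). Adgra1, an adhesion receptor, had 0.15, 0.29, 0.87 and 0.67 CPM in wildtype 1 to 4 and 2.69, 5.09, 3.97 and 6.07 CPM in knockout 1 to 4. Its groups did not overlap, but its wildtype values varied most of all the members (coefficient of variation 67.1%). Its log2 fold change was 3.08 ± 0.42 (SE).

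The secreted products were the neuropeptide Npy and the hormone Stc1. Npy had 2.34, 1.75, 3.61 and 1.15 CPM in wildtype 1 to 4 and 6.31, 15.1, 11.2 and 21.3 CPM in knockout 1 to 4. The highest knockout library was 3.37 times the lowest, the widest spread of the 9, and knockout 1 was only 1.75 times the highest wildtype library. The log2 fold change was 2.59 ± 0.44 (SE), and 2.29 without knockout 4. Stc1 had 5.35, 6.06, 4.02 and 4.43 CPM in wildtype 1 to 4 and 17.2, 20.5, 18.0 and 22.6 CPM in knockout 1 to 4. It was thus readily detected in every control kidney and 3.96-fold higher under the knockout label, a log2 fold change of 1.98 ± 0.15 (SE).

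Stk32a, a serine/threonine kinase, had the smallest fold change of the 9 and the lowest coefficient of variation under the knockout label (9.26%). It stood at 5.72, 6.36, 6.52 and 6.01 CPM in wildtype 1 to 4 and at 24.1, 22.7, 19.5 and 23.7 CPM in knockout 1 to 4. The log2 fold change was 1.87 ± 0.11 (SE). Nhlrc4, which encodes a protein with NHL repeats, had 4.52, 3.43, 4.25 and 5.34 CPM in wildtype 1 to 4 and 27.7, 31.1, 24.9 and 23.3 CPM in knockout 1 to 4, with a log2 fold change of 2.60 ± 0.15 (SE). In the GENCODE M21 annotation it shares 330 exon bases with Pigq on the same strand. Pigq stood at 257 ± 8.75 against 226 ± 12.6 CPM (SD, n = 4 each), a log2 difference of 0.18 ± 0.069 (SE, edgeR adjusted p = 0.107; adjusted p = 0.0370 with DESeq2 and 0.0158 with library totals only). How the deposited counts split that stretch was not tested. Antisense or overlapping genes without a row of their own also share exon bases with Pcdh8, Gpr176 and Stc1.

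All 9 genes passed the filter on low values, but Pcdh8, Begain and Arhgap36 passed it only through the libraries labelled knockout, and Gpr176 and Adgra1 reached its level in 3 and 2 wildtype libraries. In every one of the 9, all 4 libraries labelled knockout lay above all 4 labelled wildtype. This was so for 9.42% of the 15228 genes tested, and since the members were chosen for it nothing is read from the count. All 9 were at least 2-fold higher, as were 3.4% of genes tested. Of the 9, 7 were at least 4-fold higher by the fitted value, as were 67 genes in all (0.44%). Stc1 and Stk32a lay just under that fold. The members' median log2 fold change was 3.08, also with Arhgap36 at its lower bound, against 0.00 over all genes tested.

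The list is not exhaustive. Among 1053 tested genes with a wildtype mean under 1 CPM, 41 (3.89%) were at least 4-fold higher in the libraries labelled knockout. A gene nearly absent under the wildtype label passed the filter on low values only if it was higher under the knockout label. This share and the ranks below therefore lean upward by selection, and the median log2 fold change of the 1053 was 0.38. By fitted fold change, Arhgap36, Pcdh8 and Begain came before all others of these, in an order that is not settled, since the lower bound of Arhgap36 (log2 5.60) lies below the fitted value of Pcdh8. Gpr176 and Adgra1 ranked 10 and 12. Between Begain and Adgra1 lay Grem1 (29.6 ± 16.7 against 0.92 ± 0.43 CPM), Barx2 (2.53 ± 0.39 against 0.18 ± 0.13), Doc2a (2.46 ± 0.49 against 0.19 ± 0.20), Sftpd, Fbn2, Fcrls and 1 row without a symbol (SD, n = 4 each). Grem1 was at 5.61 CPM in knockout 1 and at 31.4 to 43.8 CPM in knockout 2 to 4. Zfp385c followed Adgra1, with a log2 fold change of 3.05 ± 0.54 (SE).

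**Figure D2:**
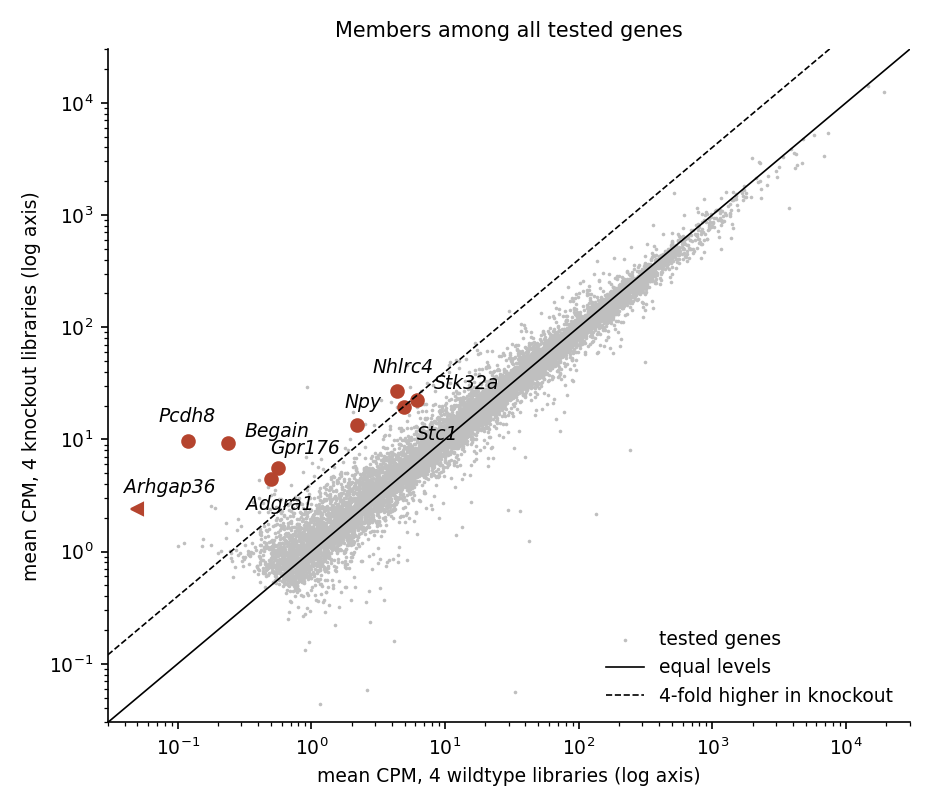
Mean CPM of each tested gene in the 4 libraries labelled knockout against the mean in the 4 labelled wildtype, on log axes, with the 9 members in red; the solid line marks equal levels and the dashed line a 4-fold difference. Arhgap36 had no wildtype count and is drawn as a triangle at the 3-count limit of 0.0495 CPM.

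Per length, the order of the members differs from that of their counts. On the scale of CPM per kilobase of exon (GENCODE M21, whose exons may differ from those the authors counted), Npy, with only 566 exon bases, was the highest member in the libraries labelled knockout, at 23.8, above 85.1% of tested genes. Nhlrc4 followed at 11.5, Stc1 at 4.67, Stk32a at 2.72, Pcdh8 at 2.13, Begain at 2.10, Gpr176 at 1.42, Adgra1 at 0.83 and Arhgap36 at 0.70. Arhgap36 was thus above 12.8% of tested genes even where it was detected. In the libraries labelled wildtype, Npy (3.91) and Nhlrc4 (1.89) were again the highest members. Begain, Pcdh8 and Arhgap36 were the lowest, above 0.264%, 0.0541% and none of the tested genes. Those low places follow from the filter and are not a finding. Begain, Pcdh8 and Arhgap36 passed it only through the libraries labelled knockout, and most rows silent under the wildtype label were left out.

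Within the group labelled knockout, the members did not all follow 1 order. Pcdh8, Adgra1, Npy and Stc1 shared the order knockout 4, 2, 3, 1 from high to low. Gpr176 was also lowest in knockout 1. Arhgap36 and Stk32a were instead highest in knockout 1, and Begain, Gpr176 and Nhlrc4 in knockout 2. Injured tubule, macrophage and fibroblast markers all summed highest in knockout 1, where Npy, Pcdh8 and Adgra1 were lowest. Spp1 made up most of the injured tubule sum, at 3478, 3050, 2963 and 3472 CPM in knockout 1 to 4. Single injury markers differed. Spp1, Clu, Vcam1 and Cd44 were highest in knockout 1, but Havcr1, Cdkn1a, Sox4 and Krt8 were lowest there. Havcr1 stood at 12.1, 14.6, 18.2 and 25.7 CPM in knockout 1 to 4. The part of injury in this order was not tested.

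**Figure D3:**
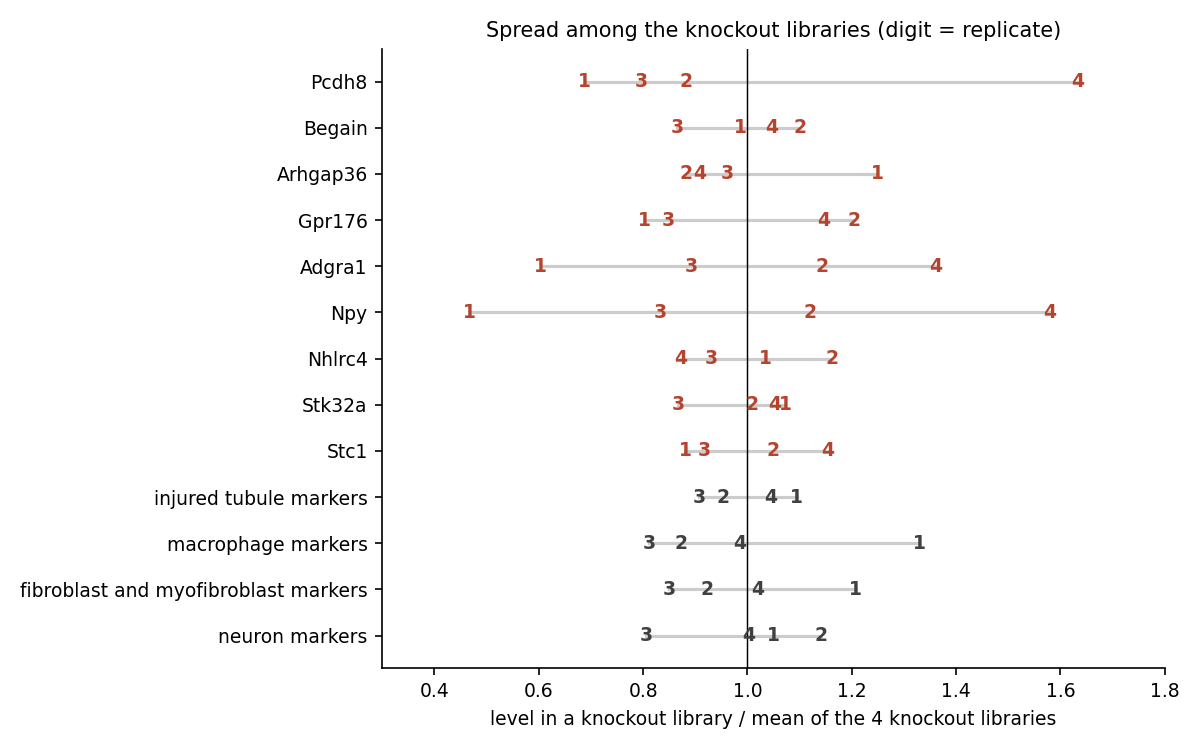
Level of each member, and summed CPM of 4 marker lists, in each of the 4 libraries labelled knockout, divided by the mean of those 4; digits are replicates. Pcdh8, Adgra1 and Npy spread widely with knockout 4 high and knockout 1 low, while Begain, Stk32a and Nhlrc4 stay close to their mean.

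Markers of other cell types were measured beside these genes. Neuron markers, 12 genes, summed to 17 to 24.1 CPM under the knockout label and 20.0 to 24 CPM under the wildtype label. Of the 7 tested, Nefm and Rbfox3 rose and Syp and Elavl3 fell (edgeR adjusted p = 0.00422, 0.0316, 0.0467 and 0.000975). Over all genes tested, 6.23% rose and 5.70% fell. Snap25 had 5 counts in knockout 2 and 0 in the other libraries. Of the 8 chromaffin cell markers, Ddc, which proximal tubules also express, made up nearly all of the 158 to 267 CPM and 182 to 245 CPM in the groups. Th had 3 counts and Dbh 7 in knockout 2, and both were at 0 in knockout 1, 3 and 4. The part of such cells in the level of Npy was not tested.

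Other markers moved with the groups. Counts of rising markers below are at an edgeR adjusted p under 0.05, where 6.23% of all genes tested rose. Injured tubule markers summed to 3642 to 4390 CPM under the knockout label and 2341 to 3171 CPM under the wildtype label, and 8 of 12 rose. Macrophage markers summed to 339 to 556 against 186 to 232 CPM, and 9 of 10 rose. Fibroblast markers summed to 605 to 859 against 345 to 461 CPM, and 5 of 9 rose, Grem1 among them. Urothelium markers, at 49.2 to 65.0 against 40.7 to 57.3 CPM, overlapped between the groups, and 2 of 8 rose. Krt20, which rose, is counted both here and among the injured tubule markers. The part of these cells in the levels of the 9 genes was not tested. For knockout 4, with its adrenal transcripts, the members' log2 fold changes without that library are 1.84 (Stk32a) to 5.95 (Pcdh8) for the 8 with wildtype counts. A circadian clock score (clock output minus activator genes) was 0.91, -1.12, -1.44 and -0.70 in knockout 1 to 4 and 0.19, 1.53, 3.36 and 2.11 in wildtype 1 to 4, and knockout 2, 3 and 4 lay below every library labelled wildtype. The part of the sampling hour was not tested.

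The genes around the members were tested in the same fit across all genes, from lists of families, partners and pathways. Of 108 related genes 90 were tested, of which 12 rose and 11 fell (13.3% and 12.2%), against 6.23% rising and 5.70% falling over all genes (edgeR's quasi-likelihood test, adjusted p under 0.05). Their median log2 fold change was -0.09. Of the 23 called genes, 15 were called in every fit that left out 1 library. Adgrg6, Cpe, Pappa, Pkib, Rgs2, Adcy1 and Celsr2 were called in all 17 alternative fits, and Npy6r in all 16 that tested it, since a filter of 1 CPM in at least 4 libraries left it out. When the fit included the clock score, 14 of the 23 calls ended, among them calls that no left-out library ended: Gnaz, Adgrg2, Adgrg3, Npy1r, Stk32b, Stc2 and Igfbp5 (edgeR adjusted p = 0.155, 0.103, 0.111, 0.297, 0.0712, 0.124 and 0.151).

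Of 21 tested protein kinase A and hedgehog genes, the setting of Arhgap36, 1 rose, 2 fell and 18 did not pass. The shares were 4.76% rising and 9.52% falling, against 6.23% and 5.70% over all genes. Pkib, which encodes another inhibitor of protein kinase A, rose from 1.51, 1.97, 1.69 and 1.94 CPM in wildtype 1 to 4 to 5.03, 5.50, 4.59 and 4.98 CPM in knockout 1 to 4. Every library labelled knockout was above every one labelled wildtype (log2 fold change 1.49 ± 0.17 (SE), edgeR adjusted p = 0.000407). Gas1, a hedgehog co-receptor, fell by 0.37 ± 0.086 on the log2 scale and Sufu, a pathway inhibitor, by 0.32 ± 0.088 (edgeR adjusted p = 0.0183 and 0.0377). Both calls were weak. Gas1 did not pass without knockout 4 or wildtype 3 (adjusted p = 0.0558 and 0.0532), nor Sufu without knockout 2, knockout 4, wildtype 2, wildtype 3 or wildtype 4 (0.0784 to 0.105), nor either with library totals only (0.0681 and 0.113). For Gli1, the hedgehog target and effector, the log2 fold change was 0.40 ± 0.28 (SE, edgeR adjusted p = 0.392).

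Of 7 genes tested around Stc1, 2 rose and 2 fell (28.6% each), against 6.23% rising and 5.70% falling over all genes. Stc1 inhibits pappalysins, proteases that cut insulin-like growth factor binding proteins. Stc2, its paralogue, rose from 7.74 ± 1.44 to 13.8 ± 0.845 CPM, and Pappa, a pappalysin, from 15.1 ± 0.64 to 33.2 ± 6.40 CPM (SD, n = 4 each; edgeR adjusted p = 0.00321 and 0.000390). The binding protein genes Igfbp5 and Igfbp4 fell by 0.64 ± 0.12 and 0.58 ± 0.15 (SE) on the log2 scale (edgeR adjusted p = 0.00604 and 0.0288). Without knockout 2, knockout 4, wildtype 1, wildtype 2 or wildtype 3 Igfbp4 did not pass (0.0549 to 0.0810). The other 3 of 7 did not pass.

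Of 5 tested genes of the neuropeptide Y system, 2 rose and 1 fell (40% and 20%), against 6.23% and 5.70% over all genes. Npy1r, a receptor for the peptide, rose from 7.23 ± 0.56 to 11.5 ± 2.10 CPM, and Cpe, a peptide-processing enzyme, from 30.9 ± 5.02 to 59.0 ± 11.4 CPM (SD, n = 4 each; edgeR adjusted p = 0.0126 and 0.00377). Npy6r fell from 1.81, 1.02, 1.34 and 0.91 CPM in wildtype 1 to 4 to 0.29, 0.18, 0.34 and 0.36 CPM in knockout 1 to 4 (log2 fold change -2.10 ± 0.36 (SE), edgeR adjusted p = 0.00378). Pcsk1, the convertase of peptide precursors, had 4 counts under the knockout label and 1 under the wildtype label, and Pyy, the paralogue of Npy, 1 and 0, too low to be tested. Npy2r, Npy4r and Npy5r were also below the filter, with 3 to 19 counts a group.

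Gpr176 couples to Gz. Among genes listed for Gz and Gi signalling, the Gz gene Gnaz fell by 0.76 ± 0.14 (SE) on the log2 scale and the adenylyl cyclase Adcy1 by 1.58 ± 0.15 (edgeR adjusted p = 0.00701 and 0.000138). Adcy1 went from 26.4, 34.0, 38.6 and 42.9 CPM in wildtype 1 to 4 to 14.2, 11.8, 10.7 and 10.8 CPM in knockout 1 to 4. Rgs2, a regulator of G protein signalling, rose from 34.9 ± 4.40 to 69.4 ± 9.99 CPM (SD, n = 4 each; edgeR adjusted p = 0.000480). The other 8 of 11 did not pass. The shares were 9.09% rising and 18.2% falling, against 6.23% and 5.70% over all genes.

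Of 19 adhesion receptors tested beside Adgra1, 5 rose and 1 fell (26.3% and 5.26%), against 6.23% and 5.70% over all genes. Its nearest relatives by name, Adgra2 and Adgra3, had log2 fold changes of -0.12 ± 0.11 and -0.15 ± 0.090 (SE; edgeR adjusted p = 0.555 and 0.311). Adgrg6, Adgrg3 and Adgrg2 rose by log2 fold changes of 0.76 ± 0.12, 0.80 ± 0.15 and 0.82 ± 0.18 (edgeR adjusted p = 0.00297, 0.00574 and 0.0122), and Celsr2 fell by 0.63 ± 0.077 (0.000631). Adgre1 and Adgrb2, named after their values were seen, also rose (1.06 ± 0.25 and 1.8 ± 0.47, edgeR adjusted p = 0.0241 and 0.0324). Adgre1, a macrophage marker, did not pass without knockout 4, wildtype 1, wildtype 2 or wildtype 4 (0.0605 to 0.0692), nor Adgrb2 without knockout 2, knockout 3, knockout 4, wildtype 1, wildtype 2 or wildtype 3 (0.0644 to 0.0884).

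The closest families of Pcdh8 and Stk32a held few tested genes. Over all genes tested, 6.23% rose and 5.70% fell. Of 6 tested delta protocadherins, the family of Pcdh8, Pcdh19 rose by 0.69 ± 0.16 and Pcdh7 fell by 0.74 ± 0.19 (SE) on the log2 scale (edgeR adjusted p = 0.0200 and 0.0258). Pcdh19 did not pass without knockout 2, knockout 4, wildtype 3 or wildtype 4 (0.0529 to 0.0632), nor Pcdh7 without knockout 2, knockout 3, knockout 4, wildtype 2 or wildtype 3 (0.0626 to 0.0807). Pcdh9, Pcdh10, Pcdh11x and Pcdh20 were too low to be tested, with 2 to 48 counts a group. Stk32b fell from 28 ± 4.12 to 16.1 ± 1.66 CPM, opposite in sign to its paralogue Stk32a (SD, n = 4 each; edgeR adjusted p = 0.00186). For Stk32c the log2 fold change was -0.48 ± 0.49 (SE; edgeR adjusted p = 0.574).

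Of 13 tested postsynaptic scaffold genes, the setting of Begain, 1 fell (7.69%), against 5.70% falling over all genes, and none rose. It was Shank2, which fell by 0.44 ± 0.12 (edgeR adjusted p = 0.0330). Shank2 did not pass without knockout 1, knockout 2, knockout 4, wildtype 2 or wildtype 4 (0.0668 to 0.0996) or with library totals only (0.0580). Dlg4, which encodes the scaffold protein that Begain binds, had 0.44 ± 0.15 (adjusted p = 0.0826). None of 6 tested NHL repeat genes passed, the nearest being Nhlrc2 (-0.25 ± 0.085, adjusted p = 0.0825) and Nhlrc1 (-0.35 ± 0.20, adjusted p = 0.288). DESeq2 and edgeR differed little over all related genes (14 rising and 12 falling with DESeq2). Over all genes tested DESeq2 called more, with 1191 rising and 1226 falling against 949 and 868 with edgeR.

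**Figure D4:**
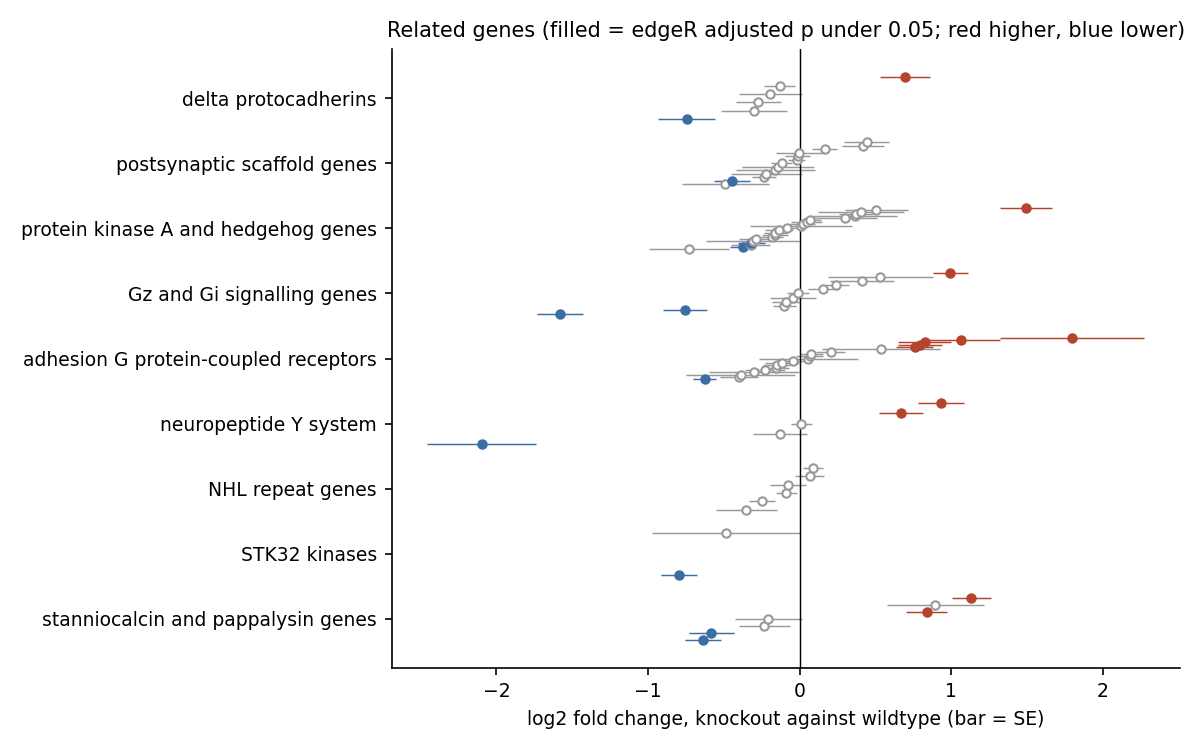
Log2 fold change (libraries labelled knockout against wildtype) of each tested related gene by list, with its SE; filled points passed edgeR's test at an adjusted p under 0.05, red higher and blue lower. Called genes lie on both sides of 0 in most lists, from Npy6r at -2.10 to Adgrb2 at 1.8.

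Neighbours on the chromosome were then compared, taking the 2 nearest genes with a row on each side in the RefSeq order of GRCm38.p6. The 9 members lie on 8 chromosomes, and Pcdh8 and Stc1 share chromosome 14. Of 36 neighbours only 17 passed the filter on low values, and of these 4 rose, 1 fell and 12 did not pass, against 6.23% rising and 5.70% falling over all genes. The median log2 fold change of the 17 was 0.20.

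Begain, Gpr176 and Npy, and Arhgap36 with a single tested neighbour, had no called neighbour. Wdr25, Dlk1 and Meg3 beside Begain had log2 fold changes of 0.00 ± 0.10, 0.17 ± 0.52 and 0.20 ± 0.24 (SE), and Enox2 beside Arhgap36 had -0.06 ± 0.11. Beside Pcdh8, Olfm4, a secreted glycoprotein gene, rose from 16.9, 23.1, 17.1 and 10.6 CPM in wildtype 1 to 4 to 85.5, 67.0, 63.3 and 71.3 CPM in knockout 1 to 4 (log2 fold change 2.09 ± 0.21 (SE), edgeR adjusted p = 0.000472). Cnmd, on its other side, had -0.81 ± 0.38 (adjusted p = 0.199).

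Nhlrc4 and Stk32a had called neighbours too. Beside Nhlrc4, A930017K11Rik rose from 9.02 ± 0.38 to 19.8 ± 1.40 CPM (SD, n = 4 each; edgeR adjusted p = 4.88e-05) and Capn15 rose by a log2 fold change of 0.35 ± 0.089 (adjusted p = 0.0284), though not without knockout 2, knockout 4, wildtype 1, wildtype 2 or wildtype 3 (0.0534 to 0.0794). Beside Stk32a, Dpysl3 rose by 1.24 ± 0.20 and Ppp2r2b fell by 0.64 ± 0.12 on the log2 scale (edgeR adjusted p = 0.00464 and 0.00524; 0.0857 for Ppp2r2b when the fit included the clock score). None of the 4 neighbours of Adgra1 or of Stc1 passed the filter on low values. Without wildtype 4, 6 neighbours rose.

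**Figure D5:**
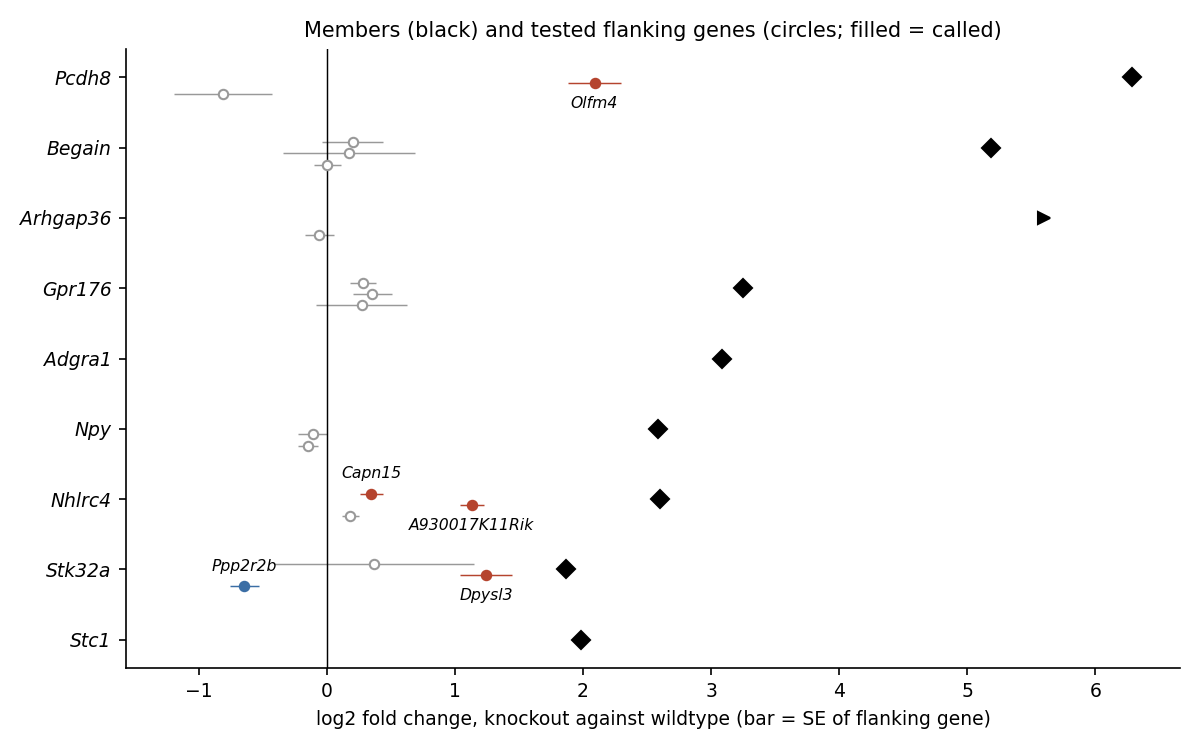
Log2 fold change (libraries labelled knockout against wildtype) of each member (black; the triangle for Arhgap36 is its lower bound) and of its tested neighbours (circles with SE; filled where edgeR's adjusted p was under 0.05, red higher and blue lower). The called neighbours are Olfm4, A930017K11Rik, Capn15, Dpysl3 and Ppp2r2b.

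The genes outside the list whose levels ran most like the members' over the 8 libraries were Tfap2b itself (Pearson r = 0.995 with the members' mean standardised log2 CPM), Myo3a (0.992), Bmp3 (0.991), Cdh3 (0.988) and Pkib (0.986). These values describe 8 libraries in 2 groups, and a gene that differs evenly between the groups reaches a high r. Tfap2b stood at 238, 266, 237 and 240.3 CPM in knockout 1 to 4 and 94.3, 105, 111 and 103 CPM in wildtype 1 to 4. Bmp3, a secreted factor of the bone morphogenetic protein family, stood at 13.3 ± 1.66 against 2.92 ± 0.45 CPM, Cdh3, a cadherin, at 26.1 ± 2.05 against 12.8 ± 0.57 CPM, and Myo3a, a myosin, at 0.86 ± 0.090 against 0.31 ± 0.026 CPM (SD, n = 4 each). Among the members, Begain (0.994) and Stk32a (0.994) ran closest to that mean profile, to which they contribute, and Npy (0.930) and Adgra1 (0.956) least.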

How the data were processed

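Libraries were made from total RNA with a directional kit, per the labels' protocols. Each deposited file holds raw read counts per gene, which the authors named as not stranded, so reads of overlapping antisense genes cannot be told apart. The submitters' processing notes name STAR, HTSeq, edgeR and the build mm9, with no versions or annotation. Genes took 63.8% to 69.1% of a library's records, and the summary records that name no gene were left out. A gene name table matched 32860 of 37583 identifiers, including all 9 members.

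edgeR's filterByExpr kept 15228 genes. After TMM scaling, a robust quasi-likelihood test in edgeR 4.0.16 (R 4.3.3, two-sided) compared the 2 groups, with p-values adjusted by Benjamini and Hochberg's method across the kept genes and called under 0.05. Alternatives were DESeq2 1.42.0, other scalings and filters, a replicate block, a clock score as a term, and left-out libraries. Libraries of a group were distinct (chi-square per degree of freedom 9.04 to 22.9). The floor of 3 counts reflects counting error alone; PCR copies are not separate molecules.

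The members, lists and tests were chosen with earlier results of these data known. Named genes are the members; per list the called genes, up to 4 by adjusted p, or 2 where none was called; called or overlapping neighbours; the 5 most alike genes; and the genes ranked next to the members. Others, such as Gli1, Dlg4, Adgra2, Adgra3, Stk32c, single markers and uncalled neighbours, were added for their role after values were seen.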

Additional observations from a re-analysis of the deposited data

Results flagged for a closer look

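Of 73 groups of 4 values examined (members, marker sums, the clock score and tested neighbours), 8 had a library far from the other 3, judged by its gap to the nearest library over the group's range; chance gives about 1 in 20. Among the members, wildtype 1 was lowest for Gpr176 (0.9263), at 0.30 CPM against 0.64 to 0.67 CPM. Among marker sums, knockout 4 was highest for adrenal cortex genes (0.9968), wildtype 1 for urothelium genes (0.8325) and wildtype 4 for kidney segment genes (0.8989). Among neighbours, knockout 1 was lowest for Gsdme (0.9331) and highest for Dpysl3 (0.8614), wildtype 2 was lowest for Ppp2r2b (0.8714) and wildtype 3 for Eif3j2 (0.8299).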

How the results depend on the processing

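No alternative changed the direction of a member. Of 162 refitted member values, 154 moved by less than 1 SD between replicates. The widest range was that of Arhgap36 (log2 fold change 4.30 with a prior count of 2 to 8.73 with the clock score), whose fitted value depends on the prior count because its wildtype counts are 0. The others ranged from 5.26 to 6.43 (Pcdh8), 4.73 to 5.45 (Begain), 3.05 to 3.36 (Gpr176), 2.81 to 3.50 (Adgra1), 2.29 to 2.96 (Npy), 2.50 to 2.71 (Nhlrc4), 1.71 to 2.09 (Stc1) and 1.78 to 2.04 (Stk32a). Over all genes, 949 rose and 868 fell; library totals only gave 1658 and 508 (76.5% upward against 52.2%, with a median log2 fold change of 0.11), a replicate block 577 and 517, the clock score as a term 460 and 240, and the fit without knockout 1 and knockout 4 502 and 410. Leaving out 1 library gave 588 to 977 rising and 488 to 963 falling; the counts moved most without knockout 2 (588 and 488), without knockout 4 (517 falling) and without wildtype 3 (576 falling). Related genes numbered 12 rising and 11 falling, 6 and 3 with the clock score, 6 falling without knockout 1 and knockout 4, and 9 to 13 and 6 to 10 with 1 library left out; the lowest falling counts were 7 without knockout 2, 6 without knockout 4 and 7 without wildtype 2. Of the neighbours, 4 rose and 1 fell, none fell with the clock score, and 3 to 6 rose with 1 library left out. The causes were not tested. Replicate numbers did not pair the libraries: same-numbered libraries had correlations of -0.22, -0.21, -0.05 and 0.16, and 1 of 8 correlated best with its own number; with the replicate block, 9 related genes rose and 8 fell. The palindrome with 3 bases between GCC and GGC was found in 2 members, with 4 bases in 4. The low counts of the members in wildtype libraries limit their fold changes.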
